A study of Mus musculus with 32 samples.

Results

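Collagen RNA was followed in the gastrocnemius, a calf muscle, of 10-week-old mice of mixed genetic background across the day. The collagens were taken as every entry of the deposited expression table whose gene symbol is Col, a type number, the letter a and a chain number, including entries that list several symbols. This rule gave 44 of 16634 entries, among them 1 shared entry, Col7a1 with Mir711, in which the reads of the 2 genes were not separated. Mutant mice carried Sf1-Cre; Sirt1loxP/loxP. For the other mice the labels say only Control, and per the design text of the series they had intact Sirt1loxP/loxP and lacked Cre. Both genotypes thus share the floxed alleles, and effects of the transgene and of the deletion cannot be told apart. Sf1-Cre acts in cells that use the Sf1 promoter, and the series describes a deletion in SF1 neurons, not in muscle. Muscle was collected at Zeitgeber times (ZT, hours after lights on) of 0, 6, 12 and 18 h, with 4 mice for each genotype and time and 32 libraries in all.

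Collagens are proteins of 3 chains wound into a triple helix, secreted as precursors and assembled outside the cell. Fibrillar collagens form the cables of tendon and of the connective tissue sheets around muscle, the basement membrane collagens line each muscle fibre and each capillary, and type VI collagen forms beaded filaments between them. In muscle most collagen RNA is made by fibroblasts and tendon cells rather than by the fibres, and endothelial cells and pericytes add basement membrane chains. The libraries came from whole tissue, so that fewer cells of a type and less RNA per cell cannot be told apart in any value below.

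Values are FPKM, fragments scaled by transcript length and by the mapped total of a library, so levels can be compared between genes. Summed over the table they ranged from 432603 to 556519 FPKM per library. Absolute depth is unknown, and relative depth read from the steps of low values ranged from 0.809 to 1.34, with a median of 1.02 in mutant and 0.946 in control libraries. Summed muscle fibre markers lay between 39400 and 79564 FPKM in all libraries, so the sum for the labelled tissue was high throughout. Among them Tnnt3 had a lowest mutant value of 569 FPKM, against a mutant median of 19805 and a lowest control value of 15220 FPKM. Markers of cartilage and bone summed to 6.34 to 34.3 FPKM, nearly all of it Cytl1, and Acan averaged 0.0113 FPKM. Lymphocyte markers summed to 1.24 to 94.3 FPKM. Sirt1 itself had a lowest, median and highest value of 4.02, 5.44 and 6.32 FPKM in mutant muscle and 4.57, 5.4 and 6.65 FPKM in control muscle (limma, adjusted p = 0.77 over all times). This whole-gene value from muscle does not check the deletion in neurons. Where nothing else is said, tests are limma fits on log2(FPKM + 1) over all 11975 tested entries, with Benjamini-Hochberg adjustment, and an entry was called at an adjusted p under 0.05.

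The collagens covered a wide range of levels, and 3 fibrillar chains held most of the RNA. Col1a2 and Col1a1, the chains of type I collagen, averaged 236 and 188 FPKM, and Col3a1, the single chain of type III collagen, averaged 154 FPKM. Together these chains made up a lowest, median and highest 56.0%, 67.1% and 76.6% of the summed collagen FPKM in mutant libraries, and 58.2%, 68.5% and 82.0% in control libraries. The summed collagen FPKM itself was 390, 801 and 1462 in mutant and 359, 782 and 1519 in control libraries (lowest, median, highest of 16), so the genotypes overlapped over nearly their whole range. By class, the 11 fibrillar entries held 75.6% of the summed collagen FPKM, the 8 basement membrane entries 10.6%, the 6 beaded filament entries 9.93% and the 9 fibril-associated entries (FACIT) 2.36%. The 4 network and anchoring entries held 1.27%, the 4 transmembrane entries 0.168% and the remaining 2 entries 0.109%.

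**Figure D1:**
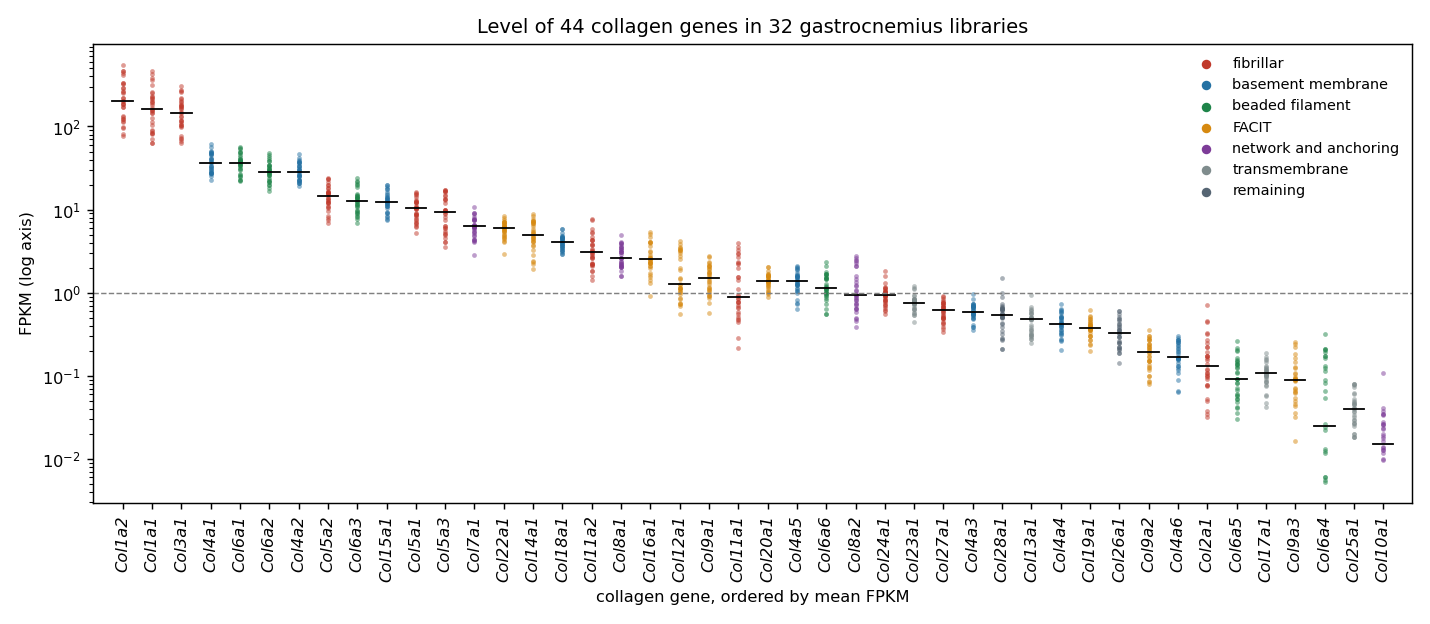
FPKM (log axis) of each of the 44 collagen entries in each of the 32 libraries, ordered by mean; points are libraries coloured by class, black bars are medians, the dashed line is 1 FPKM, and values of exactly 0 (in Col9a3, Col6a4 and Col10a1) cannot be drawn. Type I and type III chains stand apart at the top, and 27 entries reached 1 FPKM in at least 4 libraries.

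Below the leading chains came those of types IV and VI. Col4a1 and Col4a2, the common chains of the basement membrane network, averaged 37.9 and 29.4 FPKM. Col6a1, Col6a2 and Col6a3, which together form the usual type VI filament, averaged 37.0, 29.6 and 13.3 FPKM. The type V chains, which control fibril diameter, followed with 14.7 FPKM for Col5a2, 10.3 FPKM for Col5a1 and 9.69 FPKM for Col5a3. Col15a1, a basement membrane collagen of muscle and capillaries, averaged 12.8 FPKM, and Col18a1, the source of endostatin, 4.09 FPKM. Col7a1, which forms anchoring fibrils in skin, stood at 6.35 FPKM in its shared entry. Col22a1, a collagen of the junction between fibre and tendon, averaged 5.94 FPKM, and Col14a1, a fibril-associated collagen of mature connective tissue, 5.17 FPKM.

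A filter of at least 1 FPKM in at least 4 of 32 libraries kept 27 of the 44 collagens for testing. Col24a1 lay just inside it, with 12 libraries at or above 1 FPKM and a mean of 0.954 FPKM. Col23a1 lay just outside, with 3 libraries and a mean of 0.769 FPKM, as did Col28a1, with 2 libraries and a mean of 0.557 FPKM. The other 15 untested collagens reached 1 FPKM in no library. Among these were Col2a1, the fibrillar collagen of cartilage, at 0.177 FPKM, Col10a1, the collagen of hypertrophic cartilage, at 0.0188 FPKM, and Col17a1, a transmembrane collagen of skin epithelium, at 0.107 FPKM. Col4a3 and Col4a4, chains of the kidney basement membrane, averaged 0.604 and 0.435 FPKM. Exact zeros were listed for Col9a3 in 2 libraries, Col6a4 in 7 and Col10a1 in 9, and in no other collagen.

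Ratios between chains that can assemble into 1 molecule are given as FPKM over FPKM, as a description. Col4a1 was 1.12 to 1.4 times Col4a2 in all 32 libraries, with a median of 1.28. Col1a2 was 1 to 1.56 times Col1a1, with a median of 1.24, and Col6a1 was 0.984 to 1.5 times Col6a2, with a median of 1.24. The highest library was 1.25 times the lowest for the Col4a1 to Col4a2 ratio, against 3.25 times for the ratio of Col5a3 to Col5a1, chains of type V, which ran from 0.436 to 1.42 with a median of 1.06. It lay between 1.09 and 1.38 in mutant muscle at ZT6 and between 0.436 and 0.539 in mutant muscle at ZT18. In control muscle it lay between 1.27 and 1.42 at ZT6 and between 0.451 and 1.2 at ZT18. Col3a1, which forms its own molecule and mixed fibrils with type I, was 0.429 to 1.56 times Col1a1.

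Of the 8 chain ratios computed, that of Col4a1 to Col4a2 spanned the narrowest range. These genes also share their start region, and whether this bears on the ratio was not tested. Col4a1 on the minus strand and Col4a2 on the plus strand of chromosome 8 lie head to head in the deposited coordinates (mm10), at chr8:11198423-11312826 and chr8:11312829-11449287, with 2 bases between them. RefSeq on GRCm38.p6 places their starts so that the transcripts overlap by 22 bases. The stretch is printed from the start of Col4a2 to the start of Col4a1 on the plus strand (chr8:11312805-11312826), with a GC box in capitals.
Col4a2 start to Col4a1 start: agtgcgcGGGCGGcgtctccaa
Col4a3 and Col4a4 on chromosome 1 lie head to head in the same way with 71 bases between them, at under 1 FPKM each, and Col4a5 and Col4a6 on chromosome X with 1342 bases, at mean levels of 1.38 and 0.184 FPKM.

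The 250 bases before the RefSeq starts of Col1a2, Col3a1 and Col5a3 are printed for the highest fibrillar chains with a window in the table and for the chain with the strongest daily rhythm, described further on. Coordinates are on GRCm38.p6, and each sequence reads along the gene. Capitals mark a GC box (GGGCGG, or CCGCCC on the other strand), a CCAAT box (CCAAT) or a TATA box (TATAAA).
Col1a2, chr6:4505368-4505617, plus strand: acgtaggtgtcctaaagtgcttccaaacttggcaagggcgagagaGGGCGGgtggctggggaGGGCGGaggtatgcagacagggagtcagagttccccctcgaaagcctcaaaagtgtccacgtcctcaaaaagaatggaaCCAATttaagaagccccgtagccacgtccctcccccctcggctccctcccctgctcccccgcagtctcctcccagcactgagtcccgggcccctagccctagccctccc
Col3a1, chr1:45311288-45311537, plus strand: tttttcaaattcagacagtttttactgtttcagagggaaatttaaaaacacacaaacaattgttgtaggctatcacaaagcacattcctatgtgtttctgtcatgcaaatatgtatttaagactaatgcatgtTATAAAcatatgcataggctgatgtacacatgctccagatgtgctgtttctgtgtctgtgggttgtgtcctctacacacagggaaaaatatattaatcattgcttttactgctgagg
Col5a3, chr9:20815068-20815317, minus strand: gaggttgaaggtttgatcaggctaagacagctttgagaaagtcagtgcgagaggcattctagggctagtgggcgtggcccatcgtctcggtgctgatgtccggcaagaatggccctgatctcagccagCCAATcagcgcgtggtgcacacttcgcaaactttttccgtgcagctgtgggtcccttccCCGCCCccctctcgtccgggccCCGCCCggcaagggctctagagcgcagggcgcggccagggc
In these windows Col1a2 and Col5a3 each held 2 GC boxes and 1 CCAAT box, and Col3a1 held 1 TATA box and neither of the others. RefSeq windows were at hand for 35 of the 44 collagens and for 22 of the 27 tested, which have 25 windows since Col6a2, Col18a1 and Col9a1 have 2 each. Counting both strands, a GC box stood in 15 of these 25 windows, against 32.7% of all 32851 windows of the same length, and a CCAAT box in 10, against 33.8%. Of the letters known from clock-controlled promoters, the E-box CACGTG stood in 0 of the 25, against 6.02% of all windows, and the D-box TTANGTAA in 0, against 2.06%. The element AGGTCA, read by ROR and REV-ERB receptors, stood in 5 of the 25 (Col7a1, Col9a1, Col11a1, Col20a1 and Col24a1), against 14% of all windows, and not in the window of Col5a3. These matches describe letters in a window and no binding was measured.

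The collagens varied widely between mice of the same group. The standard deviation within groups on the log2(FPKM + 1) scale was 0.86 for Col1a1, 0.81 for Col1a2, 0.61 for Col3a1 and 0.57 for Col11a1, a minor fibrillar chain. The median over all tested entries was 0.18. Only Col20a1 and Col24a1, both at 0.17, were below that median among the 27 tested collagens. They averaged 1.41 and 0.954 FPKM, levels at which this scale understates spread, and entries were not matched by level. Col1a1 in the mutant muscles had 91.1, 89.0, 224 and 221 FPKM at ZT0, 386, 156, 158 and 166 at ZT6, 69.9, 63.0, 214 and 190 at ZT12, and 82.8, 128, 262 and 199 at ZT18. In the control muscles it had 204, 84.0, 319 and 230 FPKM at ZT0, 146, 146, 182 and 103 at ZT6, 81.6, 153, 112 and 466 at ZT12, and 63.1, 360, 431 and 254 at ZT18. The lowest and highest control values were at ZT18 and ZT12, the lowest and highest mutant values at ZT12 and ZT6, and the genotypes overlapped at all 4 times.

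Mice that were high in Col1a1 for their group were also high in most other collagens. After each group's mean was removed, the deviations of Col1a1 correlated positively with those of 24 of the 26 other tested collagens over 32 libraries, with a median r of 0.82. Of these relations 21 had an adjusted p under 0.05 (100000 permutations within groups, 40 relations adjusted together), and 14 had r above 0.8. Col1a2 gave r = 0.99 and Spearman's rho = 0.99 (permutation, adjusted p = 4e-05 and 4.44e-05), and r was 0.99 again without the 2 libraries farthest from the median of Col1a1. Col6a1 gave r = 0.94 and rho = 0.92, and Col12a1, a fibril-associated collagen of tendon, r = 0.93 and rho = 0.90, with r = 0.92 and 0.90 without the 2 farthest libraries (adjusted p = 4e-05 for each r and 4.44e-05 for each rho by permutation). The smallest raw p that the draws could give was 1e-05.

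**Figure D2:**
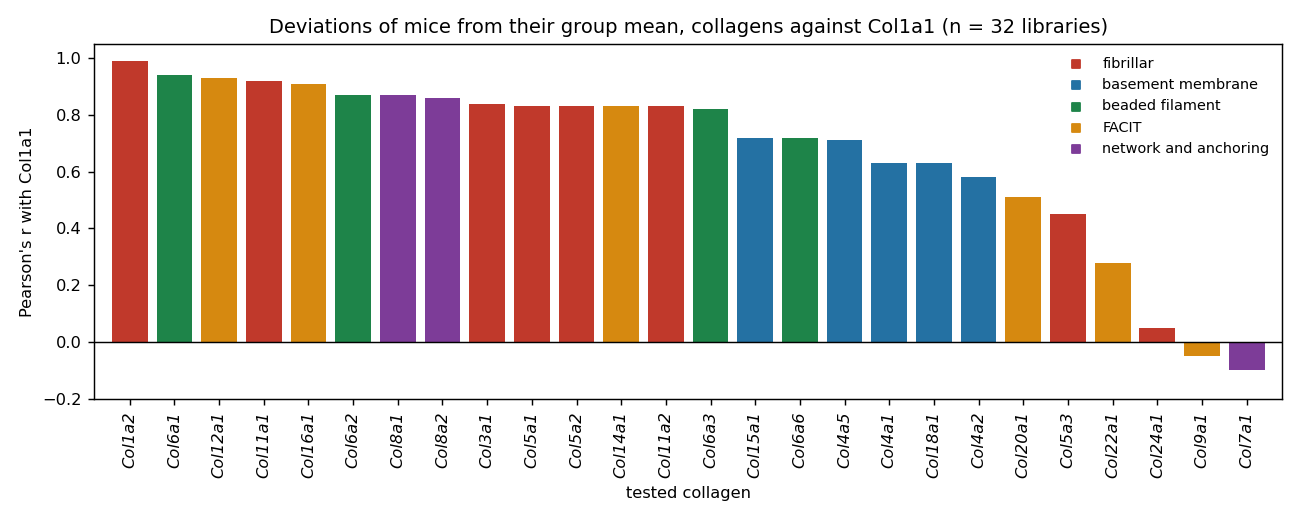
Pearson's r between the within-group deviations of Col1a1 and of each other tested collagen, on log2(FPKM + 1) over 32 libraries; bars are coloured by class and the line marks 0. Col6a1, Col6a2, Col6a3 and 6 of the 8 other fibrillar chains stand above 0.8, the basement membrane chains between 0.58 and 0.72, and Col24a1, Col9a1 and Col7a1 near 0.

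Among the basement membrane chains, the relation with Col1a1 had r = 0.63 and rho = 0.50 for Col4a1 and r = 0.58 and rho = 0.47 for Col4a2 (permutation, adjusted p of r = 0.00699 and 0.0164, of rho = 0.0280 and 0.0402). Without the 2 farthest libraries r was 0.47 and 0.43. Col4a1 and Col4a2 followed each other with r = 0.98 and rho = 0.98 (permutation, adjusted p = 4e-05 and 4.44e-05), and with r = 0.97 without the 2 farthest libraries. Col5a3, a fibrillar chain by class, gave r = 0.45 and rho = 0.45 with Col1a1, not past the threshold (permutation, adjusted p = 0.0694 and 0.0501), and r = 0.43 without those libraries. With Col4a1 it gave r = 0.74 and rho = 0.70 (permutation, adjusted p = 0.00141 and 0.00183), and r = 0.66 without the 2 farthest. Whether the r of Col5a3 with Col4a1 and with Col1a1 differ was not tested. Col22a1, Col24a1, Col9a1 and Col7a1 gave r = 0.28, 0.05, -0.05 and -0.10 with Col1a1 and rho = 0.33, 0.06, -0.05 and -0.09 (permutation, adjusted p of r = 0.163, 0.818, 0.815 and 0.63). Without the 2 farthest libraries their r was 0.21, 0.22, 0.17 and 0.00.

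Markers of tendon and of fibroblasts moved with this shared variation. The mean of 9 tendon cell markers, among them Tnmd, Scx and Fmod, correlated with Col1a1 at r = 0.89 and rho = 0.89 (permutation, adjusted p = 4e-05 and 4.44e-05; r = 0.86 without the 2 farthest libraries). The mean of 11 fibroblast markers correlated with Col1a1 at r = 0.77 and rho = 0.76 (permutation, adjusted p = 6.67e-05 and 6.15e-05; r = 0.72 without the 2 farthest). Col4a1 gave r = 0.35 and rho = 0.23 with the tendon mean, and Col5a3 r = 0.23 and rho = 0.20, neither past the threshold (permutation, adjusted p of r = 0.16 and 0.348, of rho = 0.331 and 0.39). Without the 2 farthest libraries these r were 0.23 and 0.20. With the fibroblast mean Col4a1 did pass the threshold, at r = 0.51 and rho = 0.44 (permutation, adjusted p = 0.0321 and 0.0322; r = 0.49 without the 2 farthest), and Col5a3 did not, at r = 0.20 and rho = 0.27 (permutation, adjusted p = 0.435 and 0.246; r = 0.10 without the 2 farthest). With the smooth muscle and pericyte mean Col1a1 gave r = 0.44 and rho = 0.43 (permutation, adjusted p = 0.0409 and 0.0501; r = 0.38 without the 2 farthest). Col4a1 and Col5a3 did not pass with that mean, at r = 0.35 and 0.20 (permutation, adjusted p of r = 0.116 and 0.487). With the endothelial mean Col1a1, Col4a1 and Col5a3 gave r = 0.29, 0.29 and 0.21. None of these passed (permutation, adjusted p of r = 0.202, 0.202 and 0.404). All 9 tendon markers were above 0 in every library, and their sum ranged from 94.6 to 503 FPKM in mutant and from 84.0 to 555 FPKM in control libraries. The markers were read in the same libraries as the collagens, and how much tendon each dissected piece held was not tested.

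The daily rhythm was tested as a 24 h cosine fitted to the 4 times, with the amplitude given as the log2 distance from mean to peak. Over both genotypes 3 of 27 tested collagens were called, Col5a3, Col4a1 and Col4a2, and 11.4% of all tested entries were called, so the share among collagens was like that of the table. In mutant muscle these 3 collagens were called as well, against 3.92% of all tested entries. In control muscle only Col5a3 was called, against 5.55% of all tested entries. A rhythm that differed between the genotypes was called in 0 of the 27 collagens, against 0% of all tested entries with limma. At an unadjusted p under 0.05 that difference was met by 1 collagen, Col5a3, and by 5.34% of all tested entries. At the same unadjusted threshold a rhythm was met by 8 of 27 collagens over both genotypes, 5 in mutant and 7 in control muscle, against 24%, 14.4% and 19.4% of all tested entries, again shares like those of the table.

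Col5a3, the third chain of type V collagen, had the strongest rhythm of the family. In mutant muscle its values were 7.40, 4.94, 5.28 and 9.66 FPKM at ZT0, 16.6, 16.4, 16.9 and 17.2 at ZT6, 6.42, 8.21, 8.73 and 12.0 at ZT12, and 3.57, 4.07, 4.50 and 4.03 at ZT18. In control muscle they were 6.03, 6.04, 9.58 and 9.87 FPKM at ZT0, 14.7, 13.3, 13.2 and 13.4 at ZT6, 10.0, 9.85, 14.9 and 17.2 at ZT12, and 6.32, 8.98, 5.03 and 5.57 at ZT18. In the mutants every ZT6 library was above every library of the other times and every ZT18 library below them, whereas in the controls ZT6 and ZT12 overlapped, as did ZT0 and ZT18. The amplitude was 0.93 ± 0.10 (SE, n = 16) in mutant muscle, with the peak at ZT 6.71 and an adjusted p of 1.15e-06 (limma). In control muscle it was 0.59 ± 0.10 (SE, n = 16), with the peak at ZT 8.21 and an adjusted p of 0.000999 (limma). The test of the difference between these rhythms gave an adjusted p of 0.88 (limma). The rhythm of Col5a3 passed the threshold in both genotypes under every alternative processing and with any single library left out.

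**Figure D3:**
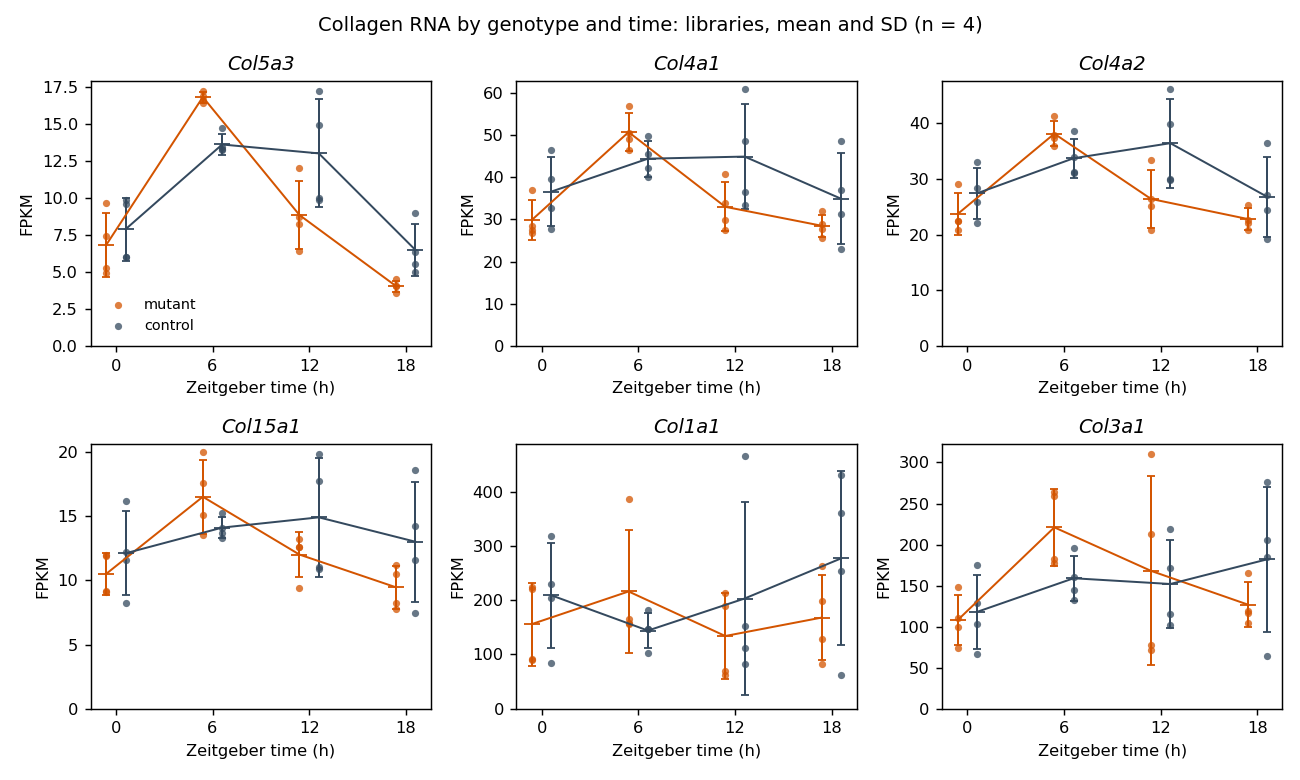
FPKM of 6 collagens by Zeitgeber time in mutant (orange) and control (grey) muscle; points are libraries, horizontal marks are means joined by lines, and bars are SD (n = 4 mice). Col5a3 of mutant muscle stands at 16.4 to 17.2 FPKM at ZT6 and at 3.57 to 4.50 at ZT18. In the Col1a1 and Col3a1 panels the libraries of mutant and control muscle overlap at every time.

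In mutant muscle the basement membrane pair Col4a1 and Col4a2 had fitted peaks at ZT 6.62 and 6.76. In control muscle, where neither rhythm was called, the fitted peaks were at ZT 8.36 and 9.21. Peak times were not compared by a test. Col4a1 in mutant muscle had 27.6, 26.7, 28.5 and 36.9 FPKM at ZT0, 49.1, 46.4, 50.4 and 56.9 at ZT6, 27.4, 29.9, 33.9 and 40.8 at ZT12, and 32, 27.7, 28.9 and 25.6 at ZT18. In control muscle it had 32.6, 27.8, 46.4 and 39.7 FPKM at ZT0, 40.1, 45.6, 42.1 and 49.8 at ZT6, 33.4, 36.6, 48.5 and 60.9 at ZT12, and 22.9, 48.6, 31.2 and 36.9 at ZT18. In the mutants ZT6 stood above all other times without overlap, and in the controls all times overlapped. The amplitude of Col4a1 was 0.41 ± 0.09 with a peak at ZT 6.62 in mutant muscle (limma, adjusted p = 0.0221), and 0.23 ± 0.09 with a peak at ZT 8.36 in control muscle (limma, adjusted p = 0.267; SE, n = 16 each).

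Col4a2 in mutant muscle averaged 23.7 ± 3.69, 38.1 ± 2.23, 26.4 ± 5.20 and 22.8 ± 1.91 FPKM at ZT0, 6, 12 and 18 (SD, n = 4). In control muscle it averaged 27.4 ± 4.63, 33.7 ± 3.49, 36.4 ± 8.00 and 26.8 ± 7.18 FPKM (SD, n = 4). Its amplitude was 0.37 ± 0.08 in mutant muscle and 0.26 ± 0.08 in control muscle (SE, n = 16 each; limma, adjusted p = 0.0165 and 0.109). A rhythm called in mutants and not in controls does not show a difference, and the test of the difference gave an adjusted p of 0.902 for both Col4a1 and Col4a2 (limma). Without mutant library 3 of ZT6, or without mutant library 3 of ZT18, neither chain was called in mutant muscle (limma, adjusted p of Col4a1 = 0.0766 and 0.0796, of Col4a2 = 0.0549 and 0.0611). Over both genotypes the pair stayed past the threshold in every alternative and with any library left out.

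**Figure D4:**
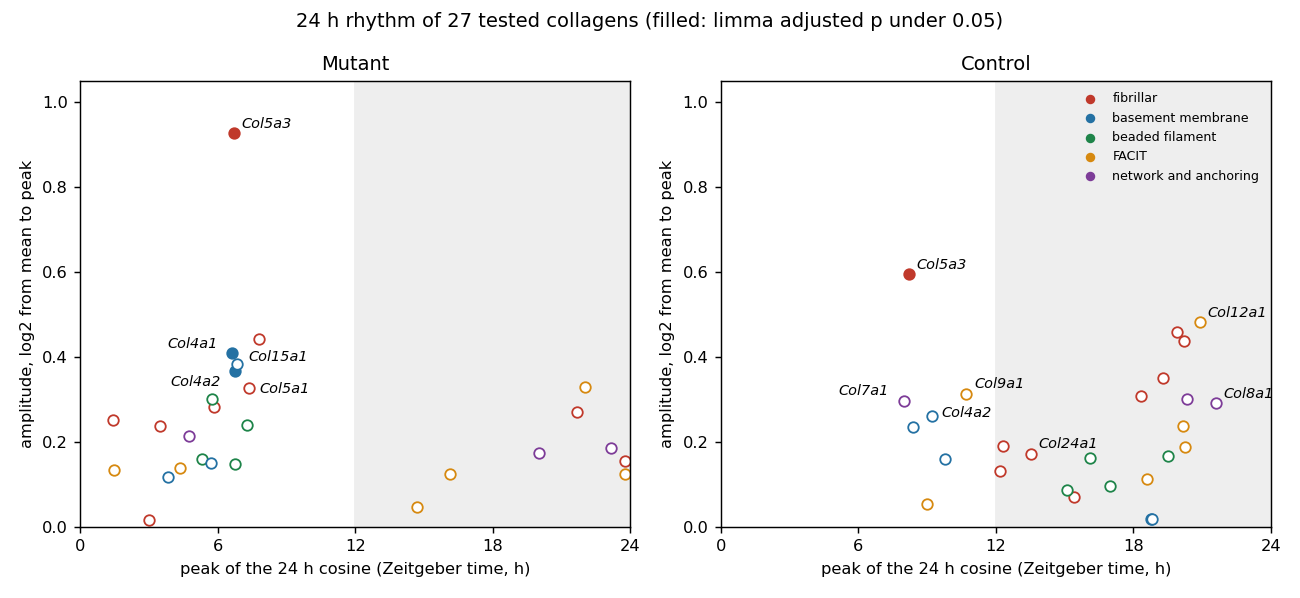
Amplitude of the fitted 24 h cosine against its peak time for the 27 tested collagens in mutant (left) and control (right) muscle; filled points were called by limma, names mark an unadjusted p under 0.05, and grey is the dark phase. Col5a3 stands highest in both panels, at 0.93 and 0.59, and Col4a1 and Col4a2 are filled in the mutant panel only, a difference that did not pass its own test.

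The other collagens gave no called rhythm. Col15a1 came close, with an amplitude of 0.26 ± 0.07 over both genotypes and a peak at ZT 7.69, near that of Col4a1 (limma, adjusted p = 0.0585; SE, n = 32). Its 4 mutant libraries of ZT6 held 13.5 to 20 FPKM and those of ZT18 7.78 to 11.2 FPKM, whereas the control libraries held 13.3 to 15.2 FPKM at ZT6 and 7.45 to 18.6 FPKM at ZT18. Col8a1, a network collagen of vessel walls, and Col12a1 had their fitted peaks at ZT 21.0 and 21.4, with amplitudes of 0.23 ± 0.07 and 0.40 ± 0.12 (limma, adjusted p = 0.0550 and 0.0707; SE, n = 32). Both were called once any of the following was left out, which made 5 collagens in all: mutant library 0 of ZT0 or of ZT6, control library 1 of ZT0 or control library 0 of ZT18. Without control library 3 of ZT12 they were called with Col11a1, which made 6. With 1 library left out, 1190 to 1487 of all entries were called over both genotypes, against 1371 in the main analysis. For Col1a1, Col1a2 and Col3a1 the amplitudes over both genotypes were 0.15 ± 0.20, 0.27 ± 0.19 and 0.27 ± 0.14, with adjusted p of 0.902, 0.654 and 0.448 (limma; SE, n = 32). With SE of 0.20 and 0.19, a rhythm of the size of that of Col4a1, 0.31 ± 0.07 over both genotypes (SE, n = 32), was not detectable in the type I chains.

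Markers of other cells had rhythms too. Over both genotypes 4 of 9 tendon markers were called, against 11.4% of all tested entries. Fmod, Thbs4 and Comp had peaks at ZT 21.4, 21.1 and 21.5, near the fitted peaks of Col8a1 and Col12a1, and Egr1, which many cell types use, at ZT 5.4. Of the endothelial markers 4 of 7 were called, against the same 11.4%, with peaks between ZT 23.1 (Pecam1) and ZT 4.1 (Kdr), while 0 of 7 smooth muscle and pericyte markers were called (limma, smallest adjusted p = 0.0580), with 3 of 7 at an unadjusted p under 0.05. With the tendon mean as a covariate, Col5a3, Col4a1 and Col4a2 were still called over both genotypes, together with Col15a1 and Col5a1. Whether the marker rhythms take part in those of the collagens was not tested further.

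No collagen was called between the genotypes at any time. With limma 0 of 27 collagens were called at each Zeitgeber time and over all times. Among all tested entries 0.0251% were called over all times and at ZT12, and 0.0167% at each of ZT0, ZT6 and ZT18. At an unadjusted p under 0.05 no collagen differed at ZT0, where 8.46% of all entries did, and 1 was higher in mutants at ZT6, against 3.59% of all entries. Those lower in mutants at that threshold were 7 at ZT12 (4.57% of all entries), 1 at ZT18 (1.93%) and 4 over all times (3.16%). The 7 at ZT12 were Col22a1, Col24a1, Col4a2, Col5a3, Col9a1, Col4a1 and Col11a2, and the 4 over all times were Col22a1, Col5a3, Col11a2 and Col4a2. A genotype difference that depended on time was called in 0 collagens and in 0% of all entries, and was met by 1 collagen, Col5a3, at an unadjusted p under 0.05, against 14.1% of all entries. The adjusted collagen counts of 0 held in every alternative and with any library left out. Among all entries the counts in such settings reached 232 at ZT6 and 447 at ZT12.

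The direction of the uncalled differences was shared by most collagens and turned with time. At ZT6 the mutant mean was above the control mean in 24 of 27 collagens, with a median difference of 0.28 on the log2 scale, whereas 42.5% of all tested entries had a higher mutant mean and their median was -0.03. At each of the other times the mutant mean was below the control mean in 25 of 27 collagens. The medians were -0.20 at ZT0, -0.28 at ZT12 and -0.19 at ZT18, while 52.5%, 36.4% and 55.7% of all entries had a lower mutant mean, with medians of -0.01, 0.06 and -0.01. Over all times 25 of 27 were lower too, with a median of -0.11, against 48.7% of all entries. With 1 library left out the collagen median kept its direction but ranged from -0.32 to -0.08 at ZT0, 0.14 to 0.34 at ZT6, -0.40 to -0.10 at ZT12, -0.42 to -0.07 at ZT18 and -0.16 to -0.04 over all times. All 9 fibrillar and all 5 basement membrane collagens tested followed this order at every time. The collagens vary together within groups, as given above, so these counts do not stand for 27 separate measurements.

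**Figure D5:**
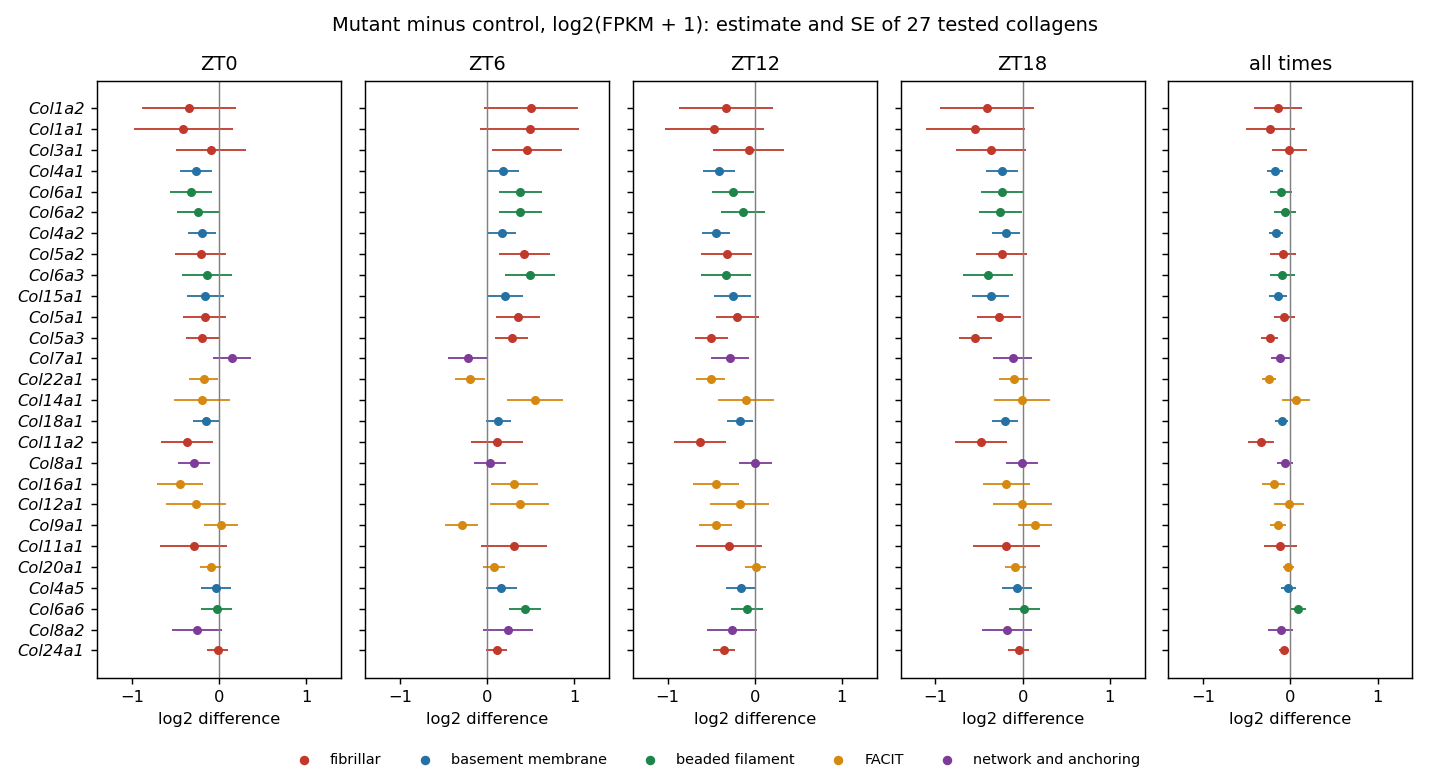
Mutant minus control difference on log2(FPKM + 1) with its SE for the 27 tested collagens at each Zeitgeber time and over all times, ordered by mean level and coloured by class. Most points lie right of 0 at ZT6 (median 0.28) and left of it at the other times, and no difference was called by limma.

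At ZT6 the 4 mutant libraries lay above all 4 control libraries for 9 of the 27 collagens, against 3.39% of all tested entries, with no test. None had every mutant below every control at that time, where 8.73% of all entries did. These were Col5a1, Col5a2, Col5a3, Col6a1, Col6a2, Col6a3, Col6a6, Col14a1 and Col18a1, so all tested chains of types V and VI were among them. Col6a6, an alternative type VI chain, had 2.08, 1.28, 1.49 and 2.37 FPKM in mutant muscle and 1.12, 0.982, 1.15 and 0.965 FPKM in control muscle. Its difference was 0.43 ± 0.18 (SE, n = 4 each; limma, adjusted p = 0.471). Col6a3 had 20.5, 14.0, 13.6 and 22.2 FPKM in mutant and 13.3, 12.8, 11.3 and 10.6 FPKM in control muscle, and Col14a1 had 7.20, 6.66, 5.53 and 7.71 FPKM in mutant and 4.14, 4.14, 5.40 and 3.61 FPKM in control muscle. Their differences were 0.49 ± 0.29 and 0.55 ± 0.32 (SE, n = 4 each; limma, adjusted p = 0.512 for both).

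Col5a3 separated the genotypes at ZT6 and at ZT18 in opposite directions. Its mutant mean was 16.8 ± 0.367 FPKM and its control mean 13.6 ± 0.699 FPKM at ZT6 (SD, n = 4 each), and at ZT18 these were 4.04 ± 0.379 and 6.48 ± 1.75 FPKM. The differences on the log2 scale were 0.28 ± 0.19 at ZT6 and -0.54 ± 0.19 at ZT18 (SE; limma, adjusted p = 0.568 and 1). These SE rest on a spread shared by all groups, not on that of the groups compared alone. The dependence of the difference on time had an adjusted p of 0.29 (limma). Col5a3 was the only tested collagen with all mutants below all controls at ZT18, against 1.66% of all tested entries, and none had all mutants above all controls there (0.843%).

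At ZT12 Col22a1 alone had all mutants below all controls, against 1.73% of all tested entries. None was above in that way at ZT12 (5.67% of all entries), and at ZT0 none separated in either direction (1.16% above and 1.45% below). Col22a1 had 4.18, 2.94, 5.07 and 5.34 FPKM in mutant muscle and 6.22, 5.60, 6.40 and 8.00 FPKM in control muscle, a difference of -0.50 ± 0.17 (SE, n = 4 each; limma, adjusted p = 0.160). Over all times its difference was -0.24 ± 0.08 (SE, n = 16 each; limma, adjusted p = 0.756). Col24a1, with 0.913, 0.781, 0.685 and 1.04 FPKM in mutant and 1.60, 1.12, 1.83 and 1.01 FPKM in control muscle at ZT12, differed by -0.35 ± 0.12 with 1 library of each genotype in the overlap, and Col4a2 by -0.44 ± 0.16 (SE, n = 4 each; limma, adjusted p = 0.175 and 0.186). At ZT0 the smallest p belonged to Col16a1, Col8a1 and Col4a1, with differences of -0.45 ± 0.27, -0.29 ± 0.19 and -0.27 ± 0.18 (SE, n = 4 each; limma, adjusted p = 0.674, 0.706 and 0.727). At ZT18 Col15a1 and Col11a2 followed Col5a3, with -0.37 ± 0.21 and -0.48 ± 0.30 (SE, n = 4 each; limma, adjusted p = 1 for both).

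The marker lists moved in part with these differences. The 9 tendon markers had median differences of -0.37, 0.27, -0.05 and -0.18 in the order of the 4 times, and the 11 fibroblast markers -0.10, 0.26, 0.14 and -0.15. At ZT6 all 11 fibroblast markers and 7 of 9 tendon markers had the higher mean in mutants, and the summed tendon markers were 98.8, 152 and 393 FPKM in mutant and 88.4, 137 and 242 FPKM in control libraries (lowest, median, highest). With the tendon mean as a covariate the collagen medians were -0.05, 0.11, -0.29 and -0.15 in the same order. They kept their directions and were smaller in size at ZT0, ZT6 and, by less, ZT18. Markers of immune and fat cells differed in mean as well, and not always in the direction of the collagens. Of all 11975 tested entries, 5092, 7619 and 5306 had the higher mean in mutants at ZT6, ZT12 and ZT18. All 8 macrophage markers had the higher mean in mutants at ZT6 and again at ZT12, where the collagens were lower, with median differences of 0.40 and 0.37. Their sums were 219 to 333 FPKM in mutant and 148 to 203 FPKM in control libraries of ZT6, without overlap, and 151 to 263 FPKM in mutant and 115 to 246 FPKM in control libraries of ZT12. All 12 lymphocyte markers had the higher mean in mutants at ZT6, ZT12 and ZT18, with sums of 2.62 to 74 FPKM in mutant and 2.21 to 25.1 FPKM in control libraries of ZT6. In the same order these sums were 2.91 to 81 and 2.07 to 94.3 FPKM at ZT12, and 1.39 to 39 and 1.24 to 2.99 FPKM at ZT18. At ZT0 the mean was lower in mutants in 11 of 12 lymphocyte and 7 of 8 macrophage markers, against 6284 of all 11975 entries. Their median differences there were -0.52 and -0.11, and the collagens were lower at ZT0 too. All 10 adipocyte markers had the higher mean in mutants at ZT6 and at ZT18, with median differences of 0.25 and 0.77, and their sums at ZT18 were 881 to 3130 FPKM in mutant and 702 to 1777 FPKM in control libraries. None of these markers was called between genotypes (limma, smallest adjusted p = 0.246 for macrophage, 0.404 for lymphocyte and 0.292 for adipocyte markers), and their part in the collagen differences was not tested beyond the covariates named here and in the closing section.

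Lists of genes that make, break and bind collagen held called rhythms over both genotypes, while none of their genes was called between genotypes at any time. These lists and the marker lists above were chosen with earlier results of these data known, so their shares are a description and no independent test. Of 26 tested synthesis and crosslinking genes 2 had a called rhythm over both genotypes, against 11.4% of all tested entries. P4ha2, a prolyl hydroxylase subunit, averaged 18.5 ± 1.98, 19.1 ± 1.73, 16 ± 1.90 and 15.5 ± 1.95 FPKM at ZT0, 6, 12 and 18 (SD, n = 8; amplitude 0.17, limma, adjusted p = 0.00771). Pcolce2, an enhancer of procollagen cleavage, averaged 9.33 ± 2.46, 6.67 ± 1.98, 5.63 ± 1.14 and 8.97 ± 2.72 FPKM (SD, n = 8; amplitude 0.36, limma, adjusted p = 0.0168). Serpinh1, the collagen chaperone of the endoplasmic reticulum, had a fitted peak at ZT 8.0 with an adjusted p of 0.0776, and P4ha1 and Lox, the lysyl oxidase that crosslinks fibrils, had adjusted p of 0.878 and 0.240 (limma).

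Of 12 tested breakdown genes 4 had a called rhythm, against 11.4% of all tested entries. Mmp14, a membrane-bound collagenase, peaked at ZT 4.1 and averaged 8.22 ± 2.35, 7.60 ± 2.16, 5.77 ± 1.44 and 3.89 ± 0.738 FPKM at ZT0, 6, 12 and 18 (SD, n = 8; amplitude 0.45, limma, adjusted p = 0.000118). Timp3, an inhibitor of such proteases, peaked at ZT 19.2, with 58.1 ± 11.5, 40.8 ± 5.76, 49 ± 6.38 and 68.9 ± 14.4 FPKM (SD, n = 8; amplitude 0.38, limma, adjusted p = 0.000266). Timp4 peaked at ZT 18.8 and Mmp2, a gelatinase, at ZT 23.4 (limma, adjusted p = 0.0188 and 0.0459). Of 6 tested collagen receptors 2, Ddr1 and the integrin chain Itga11, were called, against the same 11.4%, with peaks at ZT 0.0 and 1.3 (limma, adjusted p = 0.0114 and 0.0107), and Itga1 was not (limma, adjusted p = 0.0510).

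Among 22 tested matrix proteins that bind or surround collagen 5 were called, against 11.4% of all tested entries. Fbn1 and Eln, the proteins of elastic fibres, peaked at ZT 6.4 and 5.3, with amplitudes of 0.46 and 0.27 (limma, adjusted p = 0.0116 and 0.0268). The fitted peaks of Col5a3, Col4a1 and Col4a2 over both genotypes were at ZT 7.29, 7.25 and 7.78, and peak times were not compared by a test. Fmod and Dcn, small proteoglycans on collagen fibrils, peaked at ZT 21.4 and 22.8 (limma, adjusted p = 0.0350 and 0.0444), and Thbs1 at ZT 23.5 (limma, adjusted p = 0.0308). Sparc and Lama2 gave adjusted p of 0.892 and 0.185 (limma). In the TGF-beta pathway, a main inducer of collagen genes, 9 of 17 tested genes were called, against the same 11.4%. The inhibitors Skil and Smad7 peaked at ZT 23.1 and 23.2 and the receptors Tgfbr1 and Tgfbr3 at ZT 0.6 and 20.9 (limma, adjusted p = 1.45e-05, 0.000129, 0.000236 and 0.00181). Tgfb1 itself gave an adjusted p of 0.785 (limma).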

How the data were processed

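The authors deposited 1 table of FPKM, a value for each gene in each of the 32 single-end stranded mRNA libraries. The genome build was mm10, per the submitters' processing notes, and the aligner, quantifier and annotation are not given in the sources used here. Columns name genotype, time and a library number, and were matched to the 8 groups by genotype and time. Pools of samples were not given per sample, so no pool was corrected for. The labels do not pair libraries, and p-values measure the spread between mice.

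FPKM carry no counts, so depth is unknown and no count model was run. Entries with at least 1 FPKM in at least 4 libraries were tested on log2(FPKM + 1), which understates changes of low genes, with limma 3.58.1 in R 4.3.3 (8 group means, a prior variance that follows the mean level, 24 residual degrees of freedom and 3.37 from the prior). Each SE rests on 1 spread per entry that all 8 groups share, also where fewer mice are compared. The 24 h rhythm is an F test of cosine and sine contrasts. The tests of the genotype difference over all times and of the rhythm over both genotypes were checked on simulated data in which entries varied independently. The other tests were not checked in this way. Named collagens were those called, the 3 highest of each class (fibrillar, basement membrane, other), and the 3 with the smallest p in some comparisons. Those comparisons were the genotype difference at each time, genotype by time and the rhythm over both genotypes. Other collagens are named to account for every class. Named genes of other lists were those called, at most 5 a list by smallest p, and 8 textbook members. A gene that this rule names is not reported here. Members and lists were chosen with earlier results of these data known. Table starts count from 0, since the RefSeq start equalled the table's start plus 1 for 47.0% of 15631 symbols and the start itself for 3.55%. They are printed 1-based. Alternatives were another pseudocount (0.1), no filter, a mean of at least 5 FPKM, quantile normalisation, only the groups compared, array weights, marker scores as covariates and each library left out.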

Additional observations from a re-analysis of the deposited data

Results flagged for a closer look

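In 17 named collagens and 8 groups of 4 mice each, 7 of 136 groups held a library standing far from the other 3 by Dixon's 95% criterion, and chance flags about 1 in 20 groups. Mutant library 0 of ZT6 was high in Col1a1, Col1a2 and Col16a1, with 386, 470 and 5.12 FPKM, against 156 to 166, 189 to 201 and 2.30 to 2.59 FPKM in the other mutants of that time. Mutant library 0 of ZT12 was low in Col15a1, with 9.40 FPKM against 12.6 to 13.2 FPKM. Control library 0 of ZT6 was high in Col5a3, with 14.7 FPKM against 13.2 to 13.4 FPKM. Control library 0 of ZT18 was low in Col8a1, with 2.04 FPKM against 3.82 to 4.05 FPKM, and control library 2 of ZT0 was high in Col14a1, with 8.46 FPKM against 3.80 to 4.50 FPKM. The genotypes separated in Col5a3 with mutants higher at ZT6 and lower at ZT18, and the test of a difference that depends on time gave an adjusted p of 0.29 (limma).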

How the results depend on the processing

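The counts of collagens called between genotypes, by genotype and time and by genotype and rhythm were 0 in the main analysis, in every alternative and with any library left out. Among all entries the calls between genotypes reached 232 at ZT6 in an alternative and 447 at ZT12 with a library left out. By genotype and time they reached 93 with a library left out and 42 in an alternative, and by genotype and rhythm they stayed at 0. Unlike the collagen counts of 0, the count of rhythmic collagens moved. Over both genotypes it was 3 (11.4% of all entries called), and it was 5 with quantile normalisation (12%), 8 with array weights (17.8%) and 5 with the tendon mean as a covariate (9.99%). In control muscle it was 1 (5.55%), and it was 3 with only the control groups in the fit (10.2%), 7 with array weights (18.6%) and 2 with the tendon mean (3.86%). Leaving out 1 library gave 1 to 4 in mutant muscle, 1 to 2 in control muscle and 3 to 6 over both genotypes. Among all entries it gave 340 to 573, 471 to 948 and 1190 to 1487 calls, against 470, 665 and 1371 in the main analysis. The mutant collagen count was 1 without library 3 of ZT6 or of ZT18. The control count was 2 without library 3 of ZT12 (Col8a1 added), library 0 of ZT18 (Col8a1) or library 1 of ZT18 (Col4a2). The count over both genotypes was 5, with Col8a1 and Col12a1 added, without mutant library 0 of ZT0 or ZT6, control library 1 of ZT0 or control library 0 of ZT18, and 6, with Col11a1 too, without control library 3 of ZT12. Col4a2 in control muscle passed with array weights (limma, adjusted p = 0.0493), and Col4a1 in mutant muscle also missed without mutant library 2 of ZT6 or 1 of ZT18 (limma, adjusted p = 0.0536 and 0.0577). The difference of Col3a1 over all times, -0.02, turned to 0.0017 with quantile normalisation, 0.0305 with adipocyte and lymphocyte means and 0.0131 with the tendon mean, and ranged from -0.126 to 0.0637 with 1 library left out. Its cause was not tested. The median collagen difference moved by over 1.5 times without mutant libraries 0 or 1 or control libraries 1 or 2 at ZT0, mutant library 0 at ZT6, mutant libraries 0 or 1 or control library 3 at ZT12, control libraries 0 or 1 at ZT18 and, over all times, control library 3 of ZT12, with its direction kept. It moved as much with the tendon mean at ZT0 and ZT6 and, to -0.18, with array weights at ZT12. No paired analysis was possible because the libraries' columns carry numbers that the labels tie to no mouse, litter or day. FPKM hide the depth that limits low collagens.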
